A study of Mus musculus with 16 samples.

Results

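The genotype by surgery interaction asks, gene by gene, whether the heart without the lncRNA Cardinal answered pressure overload with a larger, smaller or equal change than the control heart. It was computed over all 16 libraries of the series, 4 in each of 4 groups, as the TAC minus sham difference in KO less the same difference in Ctrl. Ctrl sham and Ctrl TAC mice were wild type, and KO sham and KO TAC mice carried a CRISPR/Cas9 deletion of Cardinal, the mouse gene Gm12295. Transverse aortic constriction (TAC), a suture around the aortic arch that raises the pressure against which the left ventricle pumps, or a sham operation without the suture was done in male mice of 25-30 g, whose ages are not given. Hearts were collected 4 weeks later, and polyadenylated RNA of the heart apex was sequenced, 1 mouse to a library. The deletion is present in every cell of the animal, so the cell type in which the loss acts cannot be told apart in these libraries.

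Pressure overload is answered by the adult heart on several levels. Cardiomyocytes enlarge and take up genes of the fetal heart such as those of the natriuretic peptides, resident fibroblasts are activated to secrete collagens and matricellular proteins, and genes of mitochondrial fuel oxidation are turned down. In bulk tissue, fewer cells of a type and less RNA per cell cannot be told apart.

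The libraries held 53169437 to 79404714 counts over 55487 genes, and 18275 genes passed the filter on low counts. The share of counts from mitochondrially encoded genes was 21.9% to 28.8%. The deleted gene was read first, as a check of the labels. Gm12295 (chr11:65277654-65365798, minus strand, GRCm38) stood at 3.69, 3.86, 3.25 and 3.38 CPM across Ctrl sham, 0.553, 0.297, 0.465 and 0.545 CPM across KO sham, 8.03, 2.69, 3.04 and 3.37 CPM across Ctrl TAC and 0.371, 0.276, 0.368 and 4.54 CPM across KO TAC. In sham hearts the KO level was 0.465 ± 0.119 CPM against 3.54 ± 0.280 CPM (SD, n = 4 each, exact two-sided permutation test on log2 CPM, p = 0.0286, the smallest the design allows). After TAC the same exact permutation test gave p = 0.114, and p = 0.0286, again the smallest possible, without the library labelled KO TAC 4. That library, at 4.54 CPM, went against its label. It was kept, and the interaction count, some list medians and some genes are also given without it. Ctrl TAC 2 stood apart in other ways: it held 1.66 CPM of the adipocyte gene Cfd against 0.0782 to 0.553 CPM elsewhere, and 3.91 CPM of Xist against 0.274 to 0.807 CPM.

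The responses of both genotypes ran in the same direction for nearly all genes they shared, and more genes passed the test in KO. TAC changed 3652 genes in Ctrl (20.0% of those tested) and 6271 in KO (34.3%) at an adjusted p under 0.05 in edgeR's quasi-likelihood test, 10.4% higher and 9.60% lower in Ctrl and 17.8% higher and 16.5% lower in KO. Of the 3037 genes called in both genotypes (16.6%), 5 changed in opposite directions. The interaction itself passed that threshold for 2 genes, Lrrc14b and Dpm1, both lower (0.0109%). At an unadjusted p under 0.05 it held 1053 genes above 0 (5.76%) and 971 below 0 (5.31%), together 11.1%. With raw library totals and no scaling factor that split became 1539 and 471, and the median interaction of all genes moved from -0.00088 to 0.055. DESeq2's Wald test on the same model called 132 genes at an adjusted p under 0.05, of which 80 were higher, and leaving out single libraries moved the edgeR count between 0 and 18, the most without Ctrl TAC 4. It was 1 without the library labelled KO TAC 4 and 0 without that library and Ctrl TAC 2 together. KO and Ctrl differed at 489 genes after TAC (2.68%, a count that was 63 without Ctrl TAC 2) and at 0 genes after sham by edgeR, with 479 genes at an unadjusted p under 0.05 after sham (2.62%) and 3 genes called by DESeq2. Animal numbers starting with 25 belong to 3 of the Ctrl TAC libraries and to KO TAC 4. With that series as a term the count after TAC was 12, and the interaction had 0 calls with it and 0 with the series starting with 33 as a term.

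Sorting genes by the size of the TAC response averaged over genotypes gave a larger median response in KO in each class. Among genes called higher by more than 2 on the log2 scale, 120 in number, the median response was 2.45 in Ctrl and 3.02 in KO. Among the 432 genes higher by 1 to 2 it was 1.12 and 1.51, and among the 978 higher by 0.5 to 1 it was 0.55 and 0.82. The fallen genes mirrored this, since the 276 that were lower by 1 to 2 had medians of -1.10 in Ctrl and -1.47 in KO. Of all 3886 genes called higher (21.3%), 701 had an interaction above 0 at an unadjusted p under 0.05 and 62 had one below 0. Of the 3691 called lower (20.2%), 571 had an interaction below 0 at that p and 31 above. Across the 8 classes the median KO minus Ctrl difference lay between -0.063 and 0.014 after sham and between -1.02 and 0.73 after TAC.

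**Figure D1:**
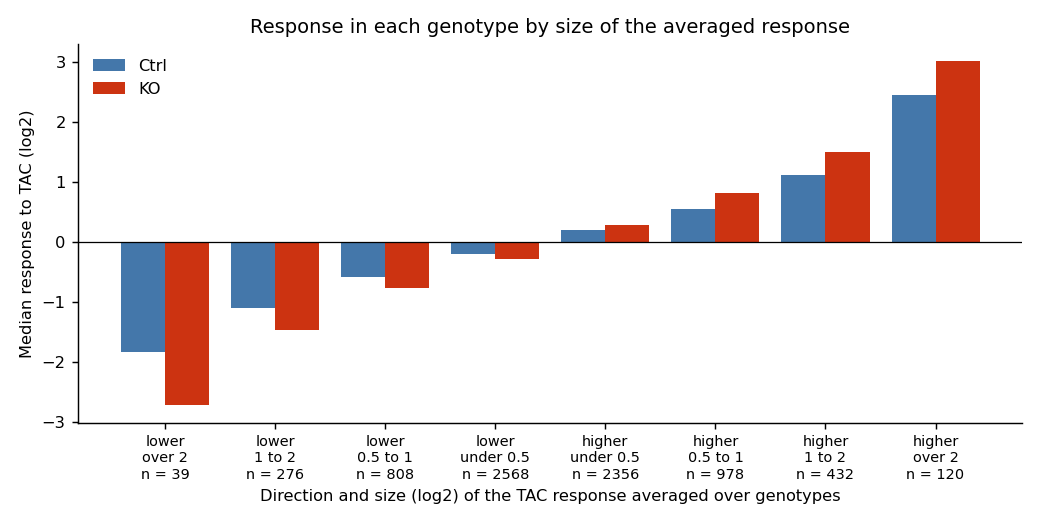
Median response to TAC (log2, vertical axis) in Ctrl and KO for genes called for the averaged response, split along the horizontal axis by its direction and size, with the number of genes under each pair of bars. The KO bar is the longer in all 8 classes, for example 3.02 against 2.45 for the 120 genes that rose most.

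The 42 gene lists differed in where their median interaction lay. Cell cycle, matrix, immediate early and complement genes had median responses that were higher in KO, lists of mitochondrial fuel oxidation, among others, had median responses that were lower in KO, and cytosolic ribosomal protein and cell junction genes had medians near 0. The median interaction ran from 0.67 for cell cycle and mitosis genes to -0.19 for fatty acid uptake and oxidation genes, beside -0.00088 over all genes tested. No list member other than Dpm1 passed the adjusted threshold for the interaction in edgeR, so the lists are described by their counts and medians. Over all genes tested, 5.76% had an interaction above 0 and 5.31% below 0 at an unadjusted p under 0.05. TAC raised 10.4% and lowered 9.60% of them in Ctrl, and raised 17.8% and lowered 16.5% in KO. Counts of list members are to be read beside these shares. The lists and members were chosen with earlier results of these data known, so such counts are a description and no independent test.

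**Figure D2:**
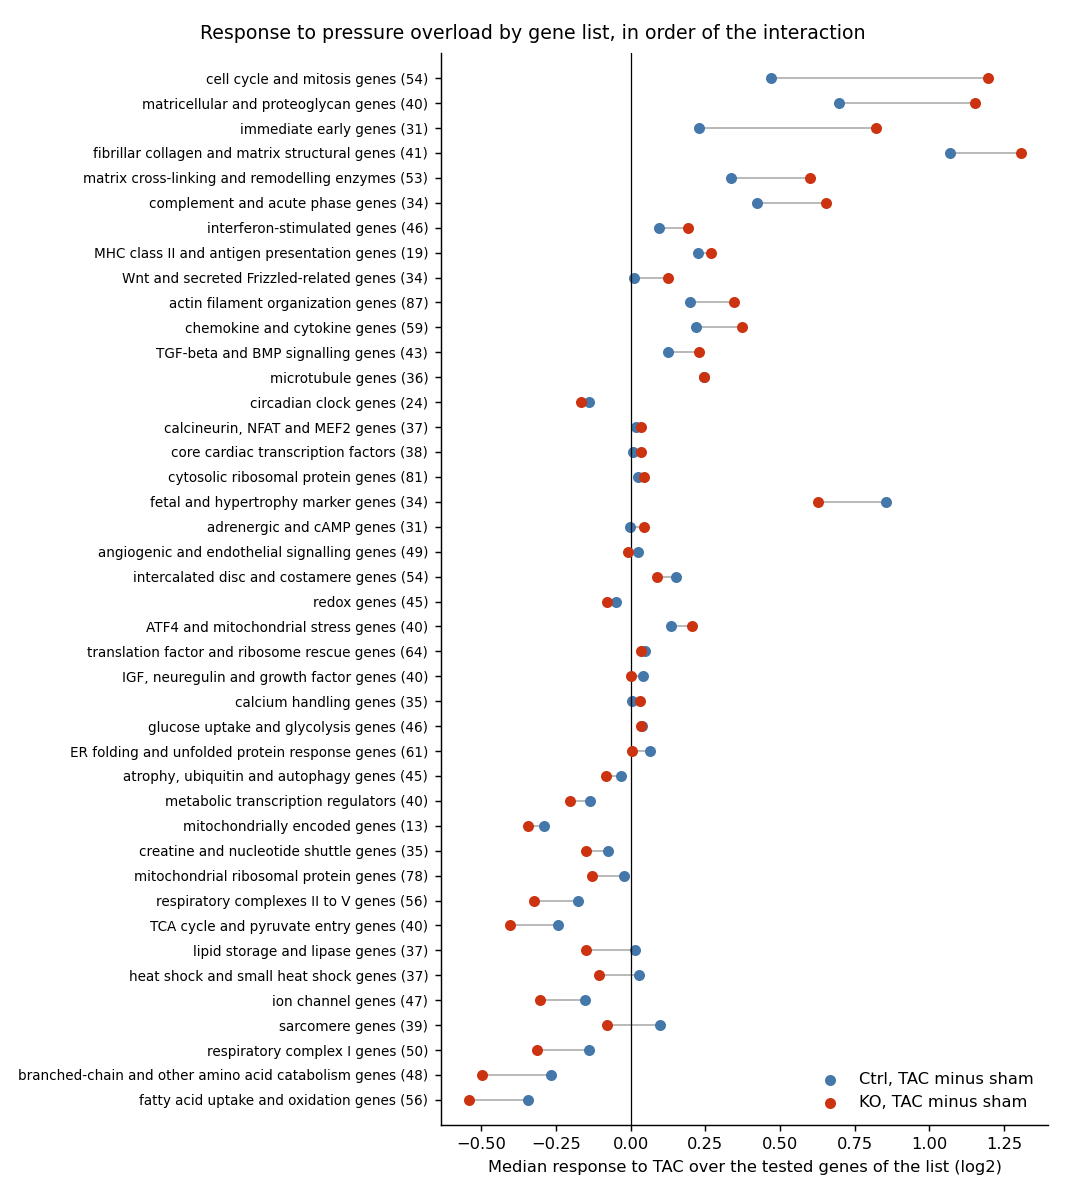
Median TAC minus sham response (log2, horizontal axis) of each of 42 gene lists in Ctrl and KO, with the number of tested genes in brackets and lists ordered by the median interaction. Matrix and cell cycle lists at the top have the KO point to the right of the Ctrl point, and the lists at the bottom, fatty acid oxidation the lowest, have it to the left.

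Lrrc14b, which codes for a leucine-rich repeat protein, had the lowest interaction p of all genes (chr13:74359578-74364005, minus strand). Its level was 10.3, 8.29, 8.42 and 10.3 CPM across Ctrl sham, 11.6, 11.1, 12.3 and 12.9 CPM across KO sham, 8.11, 7.58, 8.35 and 7.39 CPM across Ctrl TAC and 5.51, 5.46, 6.00 and 5.29 CPM across KO TAC. The 4 KO TAC libraries lay below all others and the 4 KO sham libraries above all others, so the genotypes stood in opposite order before and after TAC. Lrrc14b fell by 0.25 on the log2 scale in Ctrl (adjusted p = 0.0494) and by 1.10 in KO (adjusted p = 3.6e-08), an interaction of -0.86 ± 0.12 (SE, adjusted p = 0.0168). Without the library labelled KO TAC 4 the interaction was -0.83 with an adjusted p of 0.0545. One of its exons overlaps Ccdc127, which was counted at 71.2 to 107 CPM, so a sum of both genes holds mostly Ccdc127. The interaction of that sum was -0.20 ± 0.082 (SE, adjusted p = 0.363).

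Dpm1, a subunit of dolichol-phosphate mannose synthase that supplies mannose for glycosylation in the endoplasmic reticulum, was called in both genotypes in opposite directions (chr2:168209048-168230591, minus strand). It stood at 22.9, 21.3, 29.9 and 21.7 CPM across Ctrl sham, 42.4, 41.1, 43.8 and 45.2 CPM across KO sham, 40.6, 36.7, 36.7 and 25.6 CPM across Ctrl TAC and 22.8, 19.5, 18.4 and 26.7 CPM across KO TAC. The interaction of Dpm1 was -1.52 ± 0.20 (adjusted p = 0.0168), and -1.635 (adjusted p = 0.0105) when the library labelled KO TAC 4 was left out. An exon of Dpm1 overlaps Gm20716, and that gene showed the mirror image, with 27.0, 31.4, 19.6 and 35.3 CPM across Ctrl sham, 0, 3.85, 0 and 0 CPM across KO sham, 2.85, 4.18, 3.97 and 20.1 CPM across Ctrl TAC and 25.4, 36.7, 33.4 and 14.9 CPM across KO TAC. The sum of both genes had group means of 52.3 ± 3.45 CPM in Ctrl sham, 44.1 ± 1.29 in KO sham, 42.7 ± 2.44 in Ctrl TAC and 49.4 ± 6.14 in KO TAC (SD, n = 4), and its interaction turned to 0.46 ± 0.10 (adjusted p = 0.16). How reads in the shared exon were divided is not given in the sources used here, so the value of Dpm1 is uncertain.

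Cardinal has been described as a partner of the serum response factor, which binds the CArG box, so promoters were read for that motif, for the site of MEF2 and for the site TNAAGGTCA of the estrogen-related receptors, on both strands of the 250 bases before the start in RefSeq (GRCm38.p6). Of the 190 genes that the naming rule gives, 145 had a promoter in that table, with a CArG box in 5 (3.45%), a MEF2 site in 3 (2.07%) and an estrogen-related receptor site in 1 (0.690%). Of the 45 that it gives other than as list members, 34 had a promoter there, and 3 of these held a site. These are shown 5′ to 3′ in the direction of the gene, with the site in capitals, because they include the gene with the lowest interaction p (Lrrc14b), a muscle actin gene that rose in both genotypes (Acta1) and a myosin gene that fell in KO but was not called in Ctrl (Myh7b).
Lrrc14b, chr13:74364001-74364250, minus strand, MEF2 site: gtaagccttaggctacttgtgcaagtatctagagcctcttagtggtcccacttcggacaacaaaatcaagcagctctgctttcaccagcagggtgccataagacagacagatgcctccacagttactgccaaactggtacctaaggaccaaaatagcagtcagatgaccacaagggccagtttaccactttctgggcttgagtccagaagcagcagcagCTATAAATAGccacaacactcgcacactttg
Acta1, chr8:123894776-123895025, minus strand, CArG box: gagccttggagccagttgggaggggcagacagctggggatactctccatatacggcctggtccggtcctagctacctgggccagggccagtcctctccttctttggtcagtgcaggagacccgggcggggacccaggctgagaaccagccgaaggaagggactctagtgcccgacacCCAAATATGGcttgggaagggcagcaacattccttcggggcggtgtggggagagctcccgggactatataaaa
Myh7b, chr2:155610993-155611242, plus strand, estrogen-related receptor site: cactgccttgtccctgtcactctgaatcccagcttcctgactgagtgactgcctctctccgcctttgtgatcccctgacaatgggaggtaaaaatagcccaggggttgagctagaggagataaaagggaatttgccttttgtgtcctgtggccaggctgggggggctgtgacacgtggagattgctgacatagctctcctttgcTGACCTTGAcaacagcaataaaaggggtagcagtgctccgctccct

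Over 27025 promoters, 1 per gene, a CArG box was present in 1.40%, a MEF2 site in 3.01% and an estrogen-related receptor site in 1.14%. Among the 12202 tested genes with a promoter in the table these shares were 1.20%, 1.86% and 0.697%. Genes that rose with an interaction above 0 at an unadjusted p under 0.05 held a CArG box in 6 of 512 promoters (1.17%), and genes that fell with an interaction below 0 at that p in 6 of 430 (1.40%). Risen genes with closely similar responses held it in 7 of 725 (0.966%). For the MEF2 site the numbers in these 3 sets were 9 (1.76%), 7 (1.63%) and 13 (1.79%), and for the estrogen-related receptor site they were 7 (1.37%), 3 (0.698%) and 7 (0.966%). The differences between sets were not tested. The letters of a motif in a promoter are a description and no evidence of binding.

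Most genes of the extracellular matrix lists were called higher after TAC, and the lists had larger median responses in KO. The fibrillar collagen and matrix structural genes, the fibres and scaffolds of the interstitium, had a median response of 1.07 in Ctrl and 1.31 in KO, and a median interaction of 0.36, and of the 41 tested members 33 had an interaction above 0, 20 at an unadjusted p under 0.05, and 0 had one below 0 at that p. TAC raised 33 of them in Ctrl and 34 in KO, and of the matricellular list described next 27 and 32. For the matricellular and proteoglycan genes, secreted proteins that tie cells to these fibres, the medians were 0.70 in Ctrl and 1.15 in KO, with a median interaction of 0.48, and of the 40 tested members 36 had an interaction above 0, 20 at an unadjusted p under 0.05, and 0 had one below 0 at that p. Without the library labelled KO TAC 4 the median interactions of these lists were 0.38 and 0.50. Without Ctrl TAC 2 they were 0.30 and 0.39.

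Periostin (Postn), a matricellular protein made by activated fibroblasts, was read at 22.3, 29.5, 38.6 and 30.7 CPM across Ctrl sham, 28.9, 29.5, 26.4 and 27.3 CPM across KO sham, 177, 127, 162 and 249.7 CPM across Ctrl TAC and 385, 403, 486 and 378 CPM across KO TAC. All KO TAC libraries lay above all Ctrl TAC libraries, and the sham groups overlapped. Postn rose by 2.56 in Ctrl and 3.88 in KO on the log2 scale, and its interaction of 1.32 ± 0.26 (SE) had an adjusted p of 0.142 in edgeR. DESeq2 called Postn, and among genes named below also Lhfp, Sfrp1, Col12a1, Col14a1, Serpine2, Fn1, Skil, Ldhd, Pex6, Acot7, Ogdhl, Myh7b and Hrc. Further genes named here were called by DESeq2 as well. The fibril-associated collagen Col12a1 had 1.59, 1.38, 1.40 and 1.64 CPM across Ctrl sham, 1.58, 1.29, 1.74 and 1.04 CPM across KO sham, 5.72, 5.20, 4.49 and 8.10 CPM across Ctrl TAC and 13.2, 12.7, 18.3 and 13.9 CPM across KO TAC, again with no overlap between the TAC groups. Its interaction was 1.39 ± 0.26 (adjusted p = 0.11). Its relative Col14a1, at 7.56, 9.84, 9.73 and 11.0 CPM across Ctrl sham, 9.04, 8.62, 8.40 and 8.05 CPM across KO sham, 24.5, 19.6, 23.1 and 25.6 CPM across Ctrl TAC and 30.8, 38.1, 37.2 and 38.0 CPM across KO TAC, had an interaction of 0.79 ± 0.15 (adjusted p = 0.098).

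The fibre-forming collagens Col1a1 and Col3a1 had smaller interactions. Col1a1, the main fibre-forming chain, rose by 1.67 in Ctrl and 2.14 in KO (interaction 0.47 ± 0.15, adjusted p = 0.267), and Col3a1 rose by 1.68 and 2.23 (interaction 0.55 ± 0.18, adjusted p = 0.298). Fibrillin (Fbn1), the core of microfibrils, rose by 1.60 and 2.21 (interaction 0.61 ± 0.18, adjusted p = 0.247). Fibronectin (Fn1) rose by 0.76 and 1.255, and its interaction was 0.50 ± 0.10 (adjusted p = 0.142). In the proteoglycan Dcn, next after Sparc in counts within its list, the response was 0.23 in Ctrl (adjusted p = 0.201) and 0.60 in KO (adjusted p = 0.00113). Col5a1, a chain that nucleates fibrils, belonged to the genes with closely similar responses, at 1.12 and 1.39.

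The matrix cross-linking and remodelling enzymes had a median response of 0.34 in Ctrl and 0.60 in KO, and a median interaction of 0.23, and of the 53 tested members 37 had an interaction above 0, 20 at an unadjusted p under 0.05, and 1 had one below 0 at that p. The protease inhibitor Serpine2 stood at 20.7, 20.6, 20.8 and 23.4 CPM across Ctrl sham, 19.5, 17.4, 22.8 and 19.6 CPM across KO sham, 24.2, 24.4, 25.9 and 32.8 CPM across Ctrl TAC and 37.5, 39.6, 41.2 and 40.9 CPM across KO TAC, and the KO TAC libraries lay above every other library. Serpine2 had an interaction of 0.68 ± 0.13 (adjusted p = 0.11), and Timp2, which inhibits matrix metalloproteinases, responded by 0.16 in Ctrl (adjusted p = 0.124) and 0.60 in KO (adjusted p = 2.5e-06). Among the TGF-beta and BMP signalling genes the median interaction was 0.085 (0.055 without Ctrl sham 4), and of the 43 tested members 29 had an interaction above 0, 11 at an unadjusted p under 0.05, and 0 had one below 0 at that p. Skil, a repressor of SMAD signalling, rose by 0.27 and 0.75 (interaction 0.48 ± 0.099, adjusted p = 0.142).

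The Wnt and secreted Frizzled-related genes had a median interaction of 0.12, and of the 34 tested members 23 had an interaction above 0, 8 at an unadjusted p under 0.05, and 0 had one below 0 at that p. That median was 0.050 without KO TAC 3 and 0.19 without Ctrl TAC 2, and also moved by over 1.5 times without Ctrl sham 2, Ctrl sham 3, Ctrl TAC 1 and Ctrl TAC 3. Sfrp1, a secreted antagonist of Wnt ligands, was at 9.62, 10.4, 11.3 and 10.4 CPM across Ctrl sham, 9.77, 9.08, 8.71 and 10.8 CPM across KO sham, 15.96, 12.1, 15.4 and 13.1 CPM across Ctrl TAC and 22.0, 23.4, 33.5 and 22.7 CPM across KO TAC. The TAC groups did not overlap, and KO TAC 3 was the highest. Sfrp1 rose by 0.44 in Ctrl and 1.41 in KO, an interaction of 0.97 ± 0.17 (adjusted p = 0.098). Dkk3, a Dickkopf family protein, rose by 1.70 and 2.94 (interaction 1.246 ± 0.30, adjusted p = 0.191), with TAC levels of 8.15, 5.21, 6.49 and 8.63 CPM in Ctrl and 11.5, 14.5, 17.9 and 14.3 CPM in KO. Lhfp, a four-span membrane protein of the tetraspan family, had the lowest p of the positive interactions, with TAC levels of 45.0, 37.7, 43.5 and 46.0 CPM in Ctrl and 57.5, 58.9, 56.0 and 55.1 CPM in KO against 29.0 to 32.6 CPM after sham (interaction 0.46 ± 0.080, adjusted p = 0.098).

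Markers of cell types moved beside these genes. All 11 activated fibroblast markers had an interaction above 0, 9 of them at an unadjusted p under 0.05, with medians of 2.36 in Ctrl and 3.88 in KO. Their summed level was 81.3 to 145 CPM in Ctrl sham, 93.2 to 114 CPM in KO sham, 278 to 503 CPM in Ctrl TAC and 751 to 917 CPM in KO TAC. Of these 11 markers, 7 are also members of the matricellular list, 1 of the fibrillar list and 1 of the fetal list, so their values are not separate from those of the matrix lists. The remaining 2, named here after their values were seen, are Meox1, with an interaction of 0.57 ± 0.32 (adjusted p = 0.534), and Fap, with 0.13 ± 0.16 (adjusted p = 0.821). The 11 fibroblast markers, 6 of which stand in gene lists as well, had a median interaction of 0.16 and summed to 1310.0 to 1480.0 CPM in Ctrl sham, 1370.0 to 1430.0 CPM in KO sham, 1500.0 to 1950.0 CPM in Ctrl TAC and 1950.0 to 2240.0 CPM in KO TAC. Their median interaction was 0.077 without Ctrl TAC 2 and 0.28 without KO sham 3, and also moved by over 1.5 times without KO sham 4 and Ctrl TAC 1. Ctrl TAC 2 had the lowest activated fibroblast level of its group, at -0.082 against 0.70 to 1.04 in the other three libraries of Ctrl TAC on the log2 scale. The part of these cells in the matrix values was not tested.

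**Figure D3:**
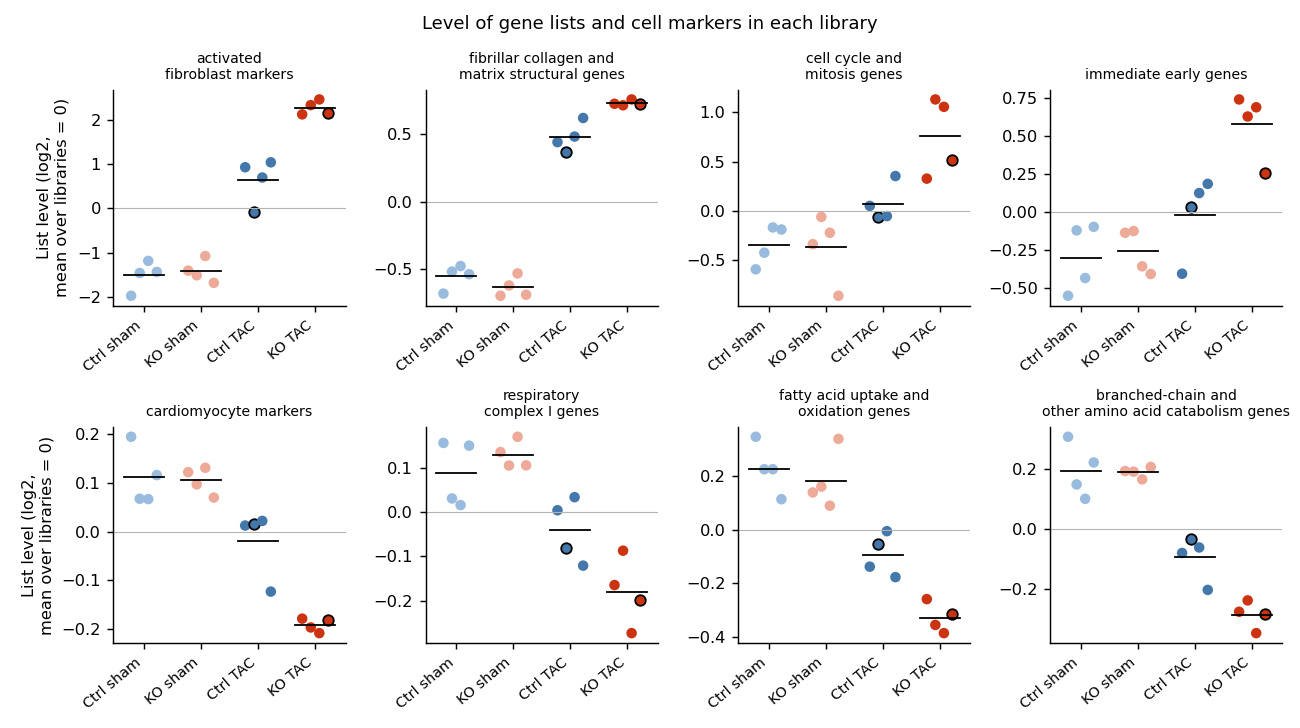
Level of 8 lists in each library (log2, median over members of log2 CPM less the gene's mean over libraries; vertical axis) by group, with the group mean as a line and black rings around Ctrl TAC 2 and the library labelled KO TAC 4. The KO TAC points of the activated fibroblast markers lie between 2.13 and 2.47 and those of Ctrl TAC between -0.082 and 1.04, and for fatty acid oxidation and amino acid catabolism the KO TAC points lie below all Ctrl TAC points.

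Among the 42 gene lists the highest median interaction, 0.67, was that of the cell cycle and mitosis genes. Their median response was 0.47 in Ctrl and 1.20 in KO, and of the 54 tested members 53 had an interaction above 0, 23 at an unadjusted p under 0.05, and 0 had one below 0 at that p. TAC raised 15 members in Ctrl and 45 in KO, beside 10.4% and 17.8% of all genes tested. The level of the list in single libraries was -0.59, -0.42, -0.17 and -0.19 in Ctrl sham, -0.34, -0.060, -0.22 and -0.86 in KO sham, 0.052, -0.061, -0.051 and 0.35 in Ctrl TAC and 0.33, 1.13, 1.05 and 0.52 in KO TAC, so that KO TAC 1 lay within the range of Ctrl TAC while the other KO TAC libraries lay above it. Bub1, a kinase of the mitotic checkpoint, changed by 0.19 in Ctrl (adjusted p = 0.708) and 1.65 in KO (adjusted p = 0.000209).

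Cyclin D2 (Ccnd2), the member with the most counts, changed by 0.18 in Ctrl (adjusted p = 0.367) and 0.59 in KO (adjusted p = 0.00217), an interaction of 0.41 ± 0.18 (adjusted p = 0.422). Bub1 was read at a mean of 1.77 ± 0.869 CPM in KO TAC (SD, n = 4). Without the library labelled KO TAC 4 the median interaction of the list was 0.79. Macrophage markers, 12 in number, had a median interaction of 0.27 (0.18 without KO TAC 2) and summed to 164 to 204 CPM in Ctrl sham, 153 to 182 CPM in KO sham, 228 to 245 CPM in Ctrl TAC and 207 to 273 CPM in KO TAC. Their part in the cell cycle values was not tested.

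The immediate early genes, transcription factors and feedback regulators switched on within minutes of a stimulus, had a median response of 0.23 in Ctrl and 0.82 in KO, and a median interaction of 0.45, and of the 31 tested members 28 had an interaction above 0, 7 at an unadjusted p under 0.05, and 0 had one below 0 at that p. The level of the list was -0.55, -0.12, -0.43 and -0.099 in Ctrl sham, -0.14, -0.13, -0.36 and -0.41 in KO sham, -0.41, 0.029, 0.12 and 0.18 in Ctrl TAC and 0.74, 0.63, 0.69 and 0.25 in KO TAC, with the library labelled KO TAC 4 the lowest of its group. The median interaction was 0.63 with 14 of 31 members at an unadjusted p under 0.05 when the library labelled KO TAC 4 was left out. Fosl2, a partner of Jun in the AP-1 complex, stood at 15.8, 26.9, 18.2 and 25.7 CPM across Ctrl sham, 24.1, 25.4, 18.2 and 16.3 CPM across KO sham, 19.1, 25.7, 23.1 and 23.4 CPM across Ctrl TAC and 55.7, 50.6, 70.0 and 30.9 CPM across KO TAC. The library labelled KO TAC 4 was the lowest of its group, and all KO TAC libraries lay above all others. Btg2, an antiproliferative coregulator, was at 19.1, 40.4, 21.2 and 26.1 CPM across Ctrl sham, 26.3, 29.4, 20.0 and 21.5 CPM across KO sham, 24.3, 37.0, 44.7 and 40.1 CPM across Ctrl TAC and 86.4, 94.2, 98.7 and 49.5 CPM across KO TAC, with the same library lowest in its group. The interactions were 1.23 ± 0.34 for Fosl2 (adjusted p = 0.24) and 1.30 ± 0.39 for Btg2 (adjusted p = 0.26).

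Lists of innate immune genes had positive median interactions. The complement and acute phase genes had a median response of 0.42 in Ctrl and 0.65 in KO, and a median interaction of 0.22 (0.14 without Ctrl sham 3), and of the 34 tested members 25 had an interaction above 0, 9 at an unadjusted p under 0.05, and 2 had one below 0 at that p. Serping1, the inhibitor of the first complement protease, rose by 0.30 in Ctrl and 0.76 in KO (interaction 0.46 ± 0.10, adjusted p = 0.142). The acute phase gene Serpina3n rose by 1.10 and 1.92. Among the interferon-stimulated genes the median interaction was 0.13 (0.070 without Ctrl sham 3), and of the 46 tested members 38 had an interaction above 0, 7 at an unadjusted p under 0.05, and 1 had one below 0 at that p. Ifit2, induced by interferon, changed by 0.18 in Ctrl (adjusted p = 0.274) and rose by 0.73 in KO. The 12 macrophage markers, whose summed levels stand above beside the cell cycle genes, overlapped between Ctrl TAC and KO TAC in that sum, and their part in these values was not tested.

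The actin filament organization genes, which build and cut actin filaments outside the sarcomere, had a median response of 0.20 in Ctrl and 0.35 in KO, and a median interaction of 0.11, and of the 87 tested members 67 had an interaction above 0, 18 at an unadjusted p under 0.05, and 2 had one below 0 at that p. Cytoplasmic gamma actin (Actg1) changed by 0.13 in Ctrl (adjusted p = 0.425) and rose by 0.61 in KO (interaction 0.48 ± 0.14, adjusted p = 0.241). The microtubule genes had medians of 0.25 in Ctrl and 0.25 in KO, and a median interaction of 0.044. Of the 36 tested members 22 had an interaction above 0. At an unadjusted p under 0.05, 2 lay above 0 and 1 below 0, together 8.33% beside 11.1% of all genes tested. TAC raised 14 microtubule genes in Ctrl and 22 in KO. In that list the microtubule-associated Map1b had the lowest p, at 0.55 ± 0.15 (adjusted p = 0.214).

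**Figure D4:**
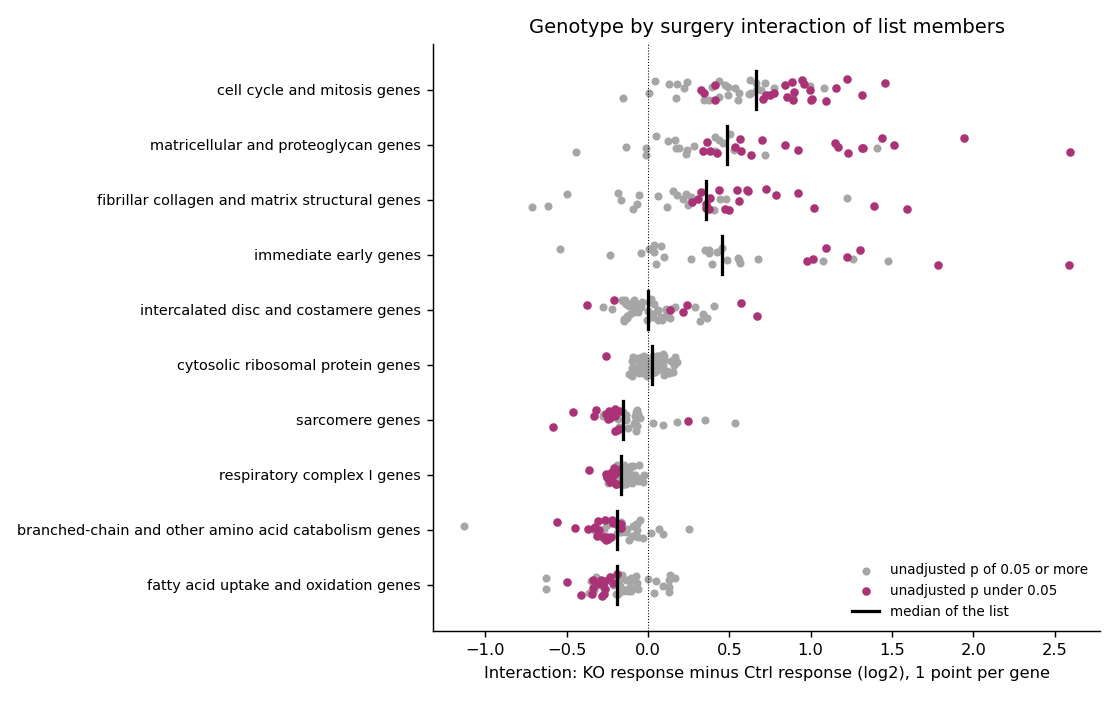
Interaction (log2, KO response minus Ctrl response, horizontal axis) of each tested member of 10 lists, with members at an unadjusted p under 0.05 in purple and the list median as a black bar. Cell cycle and matrix members lie mostly to the right of 0, all 50 complex I members lie to the left, and cytosolic ribosomal protein genes gather around 0.

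Fatty acid, amino acid catabolism and complex I genes had the lowest median interactions of the 42 lists. The fatty acid uptake and oxidation genes had a median response of -0.34 in Ctrl and -0.54 in KO on the log2 scale, with 34 of 56 called lower in Ctrl and 42 in KO, and a median interaction of -0.19 (-0.13 without KO sham 4). At an unadjusted p under 0.05, 18 members had an interaction below 0 and 0 above. Hadh, an enzyme of beta-oxidation, fell by 0.40 in Ctrl and fell by 0.81 in KO (interaction -0.41 ± 0.11, adjusted p = 0.223). Lipoprotein lipase (Lpl), the gene with the most counts in the list, fell by 0.27 in Ctrl and fell by 0.34 in KO, with a 95% interval of the interaction from -0.24 to 0.094. The branched-chain and other amino acid catabolism genes had a median response of -0.27 in Ctrl and -0.50 in KO, and a median interaction of -0.19, and of the 48 tested members 4 had an interaction above 0, 0 at an unadjusted p under 0.05, and 25 had one below 0 at that p. Proline dehydrogenase (Prodh) fell by 0.48 in Ctrl and fell by 1.04 in KO (interaction -0.56 ± 0.14, adjusted p = 0.195).

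The TCA cycle and pyruvate entry genes had a median response of -0.24 in Ctrl and -0.40 in KO, and a median interaction of -0.13, and of the 40 tested members 5 had an interaction above 0, 0 at an unadjusted p under 0.05, and 12 had one below 0 at that p. Leaving out the library labelled KO TAC 4 gave a median of -0.14 and 9 members below 0 at that p. Ogdhl, a homologue of the E1 subunit of the oxoglutarate dehydrogenase complex, was read at 190.3, 164, 156 and 189 CPM across Ctrl sham, 191, 179, 170.2 and 177 CPM across KO sham, 149, 162, 148 and 125 CPM across Ctrl TAC and 102, 106, 105 and 106 CPM across KO TAC. The 4 KO TAC libraries lay within a few CPM of each other and below all other libraries. The interaction of Ogdhl was -0.52 ± 0.10 (adjusted p = 0.142).

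With all libraries, all 50 respiratory complex I genes had an interaction below 0, from -0.36 to -0.026, and 19 had an unadjusted p under 0.05. TAC lowered 16 of them in Ctrl and 41 in KO. When the library labelled KO TAC 4 was left out, 1 member had an interaction above 0, and 15 had one below 0 at an unadjusted p under 0.05. The level of the list was 0.16, 0.032, 0.017 and 0.15 in Ctrl sham, 0.14, 0.11, 0.17 and 0.11 in KO sham, 0.0049, -0.080, 0.035 and -0.12 in Ctrl TAC and -0.16, -0.087, -0.27 and -0.20 in KO TAC, and KO TAC 2 overlapped Ctrl TAC. Ndufs7, a subunit that carries an iron-sulfur cluster, responded by -0.16 in Ctrl (adjusted p = 0.0937) and -0.52 in KO (adjusted p = 7.0e-06). The respiratory complexes II to V genes had a median interaction of -0.12, and of the 56 tested members 5 had an interaction above 0, 0 at an unadjusted p under 0.05, and 16 had one below 0 at that p. The 13 mitochondrially encoded genes, transcribed inside the organelle, had medians of -0.29 and -0.34 and 0 members at an unadjusted p under 0.05 above or below 0. Their median interaction was -0.059 with all libraries. It was -0.14 without Ctrl sham 1 and 0.046 without Ctrl TAC 3, and also moved by over 1.5 times without Ctrl sham 3, Ctrl sham 4, KO sham 4, Ctrl TAC 2, Ctrl TAC 4 and KO TAC 4.

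Mitochondrial ribosomal protein genes, 78 in number, had a median response of -0.022 in Ctrl and -0.13 in KO, and a median interaction of -0.12, with 16 members below 0 at an unadjusted p under 0.05 and 0 above. Mrpl37, of the large subunit, responded by -0.072 in Ctrl (adjusted p = 0.371) and -0.33 in KO (adjusted p = 8.9e-05). For cytosolic ribosomal protein genes the medians were 0.026 and 0.045, the interactions of all 81 lay between -0.26 and 0.18, and 1 had an unadjusted p under 0.05.

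Several enzymes were among the genes with the lowest interaction p. Ldhd, the mitochondrial D-lactate dehydrogenase, was at 52.5, 50.5, 49.1 and 51.4 CPM across Ctrl sham, 52.5, 49.3, 50.5 and 56.8 CPM across KO sham, 38.6, 41.1, 39.8 and 34.2 CPM across Ctrl TAC and 28.9, 30.0, 27.2 and 27.3 CPM across KO TAC. The KO TAC libraries lay below all Ctrl TAC libraries, and the sham groups overlapped. Ldhd had an interaction of -0.48 ± 0.084 (adjusted p = 0.098). Pex6, an ATPase of peroxisome assembly, stood at 42.4, 43.0, 45.8 and 41.2 CPM across Ctrl sham, 47.6, 42.5, 44.2 and 47.3 CPM across KO sham, 38.5, 45.4, 36.6 and 33.2 CPM across Ctrl TAC and 27.9, 28.1, 25.3 and 27.1 CPM across KO TAC, where Ctrl TAC 2 lay within the sham range. It responded by -0.17 in Ctrl (adjusted p = 0.129) and -0.75 in KO (adjusted p = 5.4e-07), an interaction of -0.58 ± 0.10 (adjusted p = 0.098). For the acyl-CoA thioesterase Acot7 the interaction was -0.34 ± 0.068 (adjusted p = 0.142).

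The sarcomere genes had medians of 0.099 in Ctrl and -0.079 in KO, and of the 39 tested members 6 had an interaction above 0, 1 at an unadjusted p under 0.05, and 14 had one below 0 at that p. TAC raised 17 and lowered 8 of them in Ctrl, and raised 9 and lowered 11 in KO. Alpha myosin heavy chain (Myh6), the fast adult isoform of the mouse ventricle, fell by 0.30 in Ctrl and fell by 0.63 in KO, an interaction of -0.33 ± 0.11 (adjusted p = 0.285). Myh7b, another myosin heavy chain, was at 123, 117, 123 and 117 CPM across Ctrl sham, 126, 108, 141 and 133 CPM across KO sham, 86.2, 139, 125 and 115 CPM across Ctrl TAC and 79.0, 73.8, 64.8 and 81.6 CPM across KO TAC. Its Ctrl response was -0.045 (adjusted p = 0.841) and its KO response -0.76 (adjusted p = 9.1e-05), with an interaction of -0.72 ± 0.16 (adjusted p = 0.17). Obsl1, which links the sarcomere to membranes, rose by 0.24 in Ctrl and had a KO response of -0.080 (adjusted p = 0.37).

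Beside these values, all 12 cardiomyocyte markers had an interaction below 0, 7 of them at an unadjusted p under 0.05, with a median of -0.19, close to that of the oxidation lists. In number, 11 of them are also members of gene lists, 8 of the sarcomere list. Their summed level was 65100.0 to 73700.0 CPM in Ctrl sham, 66100.0 to 72100.0 CPM in KO sham, 58600.0 to 63400.0 CPM in Ctrl TAC and 51700.0 to 53500.0 CPM in KO TAC, so in that sum the KO TAC libraries lay below the Ctrl TAC libraries. Myh6 was its largest part, at 18700 to 21900 CPM in Ctrl TAC and 14600 to 16100 CPM in KO TAC. Singly, Myh6, Tnnt2, Tnni3 and Ckm were also lower in every KO TAC library than in any Ctrl TAC library. Actn2, Ryr2, Pln, Myl2, Myl3, Ttn, Mybpc3 and Mb overlapped. No cardiomyocyte marker was near 0 (a median under 0.1 CPM over libraries). The part of this shift in the sarcomere, calcium handling and oxidation values was not tested.

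Calcium handling genes had a median response of 0.0066 in Ctrl and 0.030 in KO, and a median interaction of -0.042, so that the difference of the medians and the median interaction had opposite signs, and of the 35 tested members 14 had an interaction above 0, 2 at an unadjusted p under 0.05, and 5 had one below 0 at that p. The median interaction was -0.065 without KO sham 4 and -0.0097 without KO TAC 2, and also moved by over 1.5 times without Ctrl sham 1 and KO sham 2. Hrc, a calcium-binding protein of the sarcoplasmic reticulum, was at 1024, 877, 934 and 946 CPM across Ctrl sham, 962, 923, 878 and 955 CPM across KO sham, 677, 726, 694 and 596 CPM across Ctrl TAC and 505, 473, 495 and 547 CPM across KO TAC, and its KO TAC libraries lay below all others. Hrc fell by 0.49 in Ctrl and fell by 0.88 in KO (interaction -0.39 ± 0.091, adjusted p = 0.166). The calcium pump Atp2a2 fell by 0.52 in Ctrl and fell by 0.77 in KO (interaction -0.25 ± 0.079, adjusted p = 0.267), and its inhibitor Pln fell by 0.47 in Ctrl and fell by 0.58 in KO (interaction -0.11 ± 0.10, adjusted p = 0.741). The ion channel genes had a median interaction of -0.15 (-0.18 without Ctrl TAC 1 and -0.093 without Ctrl TAC 2, and also moved by over 1.5 times without KO TAC 2), and of the 47 tested members 14 had an interaction above 0, 2 at an unadjusted p under 0.05, and 4 had one below 0 at that p. At that p the ion channel list held 12.8% of its tested members, beside 11.1% of all genes tested. Kcnv2, a modifier of potassium channels, fell by 1.96 in Ctrl and fell by 2.94 in KO (interaction -0.98 ± 0.28, adjusted p = 0.236). Hopx, a regulator without DNA binding of its own, fell by 0.56 in Ctrl and fell by 1.17 in KO (interaction -0.61 ± 0.16, adjusted p = 0.214).

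**Figure D5:**
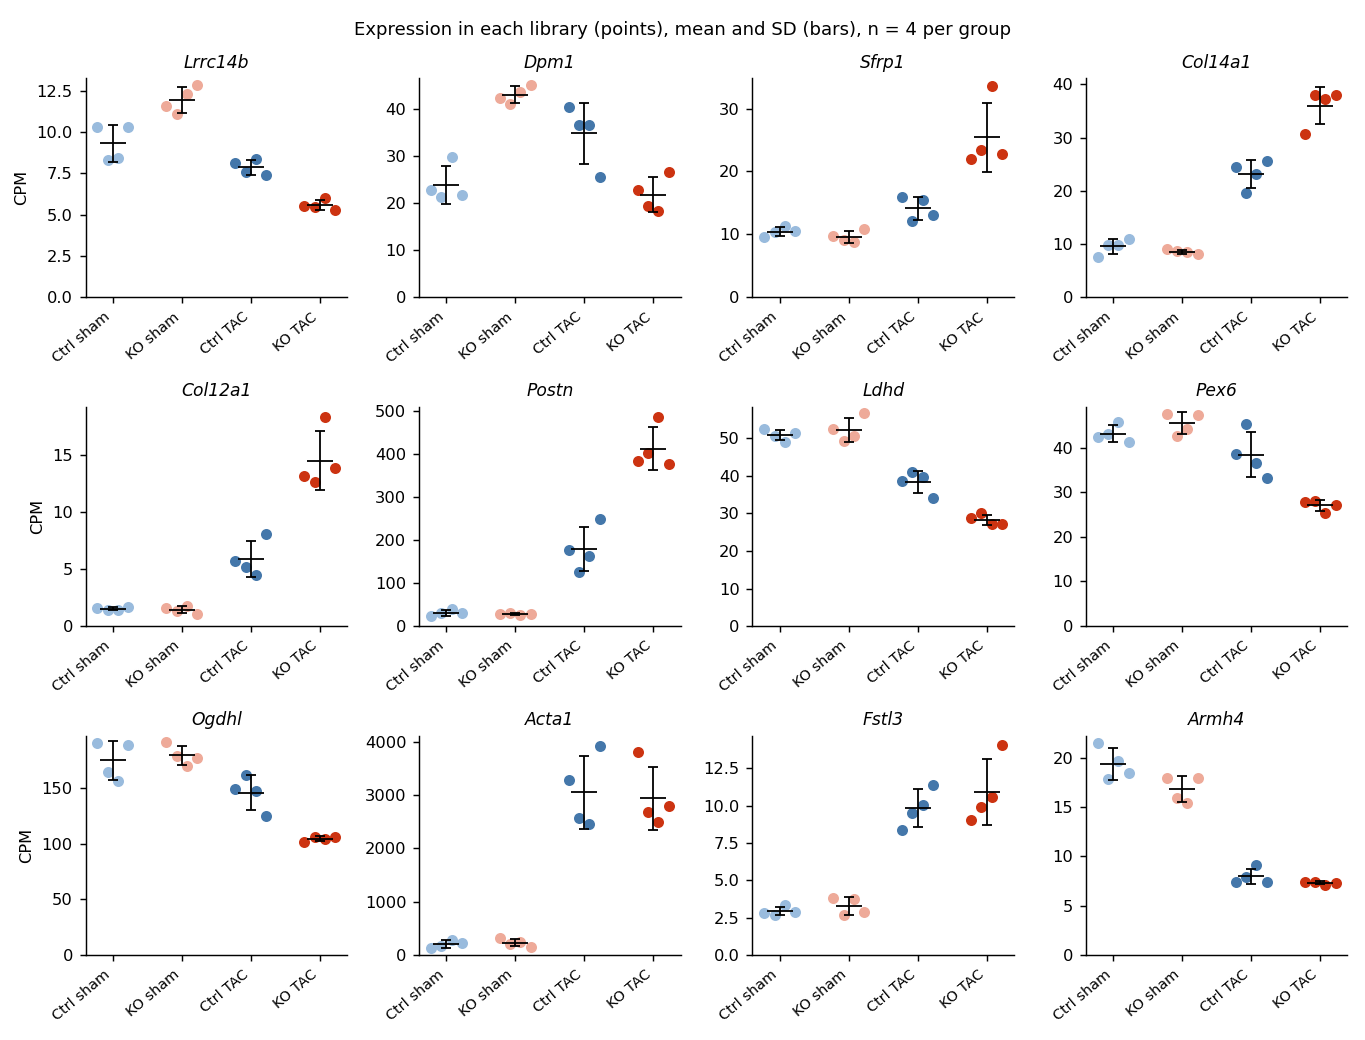
Expression (CPM, vertical axis from 0) of 12 genes in each library by group, with mean and SD (n = 4). Lrrc14b and Dpm1 passed the interaction test; Sfrp1 to Postn are separated after TAC with KO above Ctrl, Ldhd, Pex6 and Ogdhl with KO below Ctrl, and Acta1, Fstl3 and Armh4 overlap between genotypes after TAC.

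The fetal and hypertrophy marker genes had medians of 0.85 in Ctrl and 0.63 in KO, but a median interaction of 0.023, and of the 34 tested members 18 had an interaction above 0, 3 at an unadjusted p under 0.05, and 2 had one below 0 at that p. The natriuretic peptide gene Nppa stood at 89.3, 144, 129.5 and 159 CPM across Ctrl sham, 190.1, 124, 159 and 113 CPM across KO sham, 1298, 501, 724 and 1579 CPM across Ctrl TAC and 2320.0, 2537, 2446 and 1985 CPM across KO TAC. It rose by 2.98 in Ctrl and 3.99 in KO, an interaction of 1.01 ± 0.44 (95% interval 0.054 to 1.97, adjusted p = 0.422). Its neighbour Nppb rose by 2.49 and 2.55, with a 95% interval of the interaction from -1.01 to 1.12. Skeletal alpha actin (Acta1), at 129, 172, 287 and 224 CPM across Ctrl sham, 324, 213, 242 and 152 CPM across KO sham, 3290.0, 2563, 2448 and 3915 CPM across Ctrl TAC and 3810.0, 2678, 2494 and 2793 CPM across KO TAC, rose by 3.91 and 3.66 (95% interval -1.07 to 0.57). For beta myosin heavy chain (Myh7), which the mouse ventricle uses before birth, the responses were 1.17 and 1.38 (95% interval -0.41 to 0.83). These intervals are too wide to call the responses equal within 1.5-fold. Those of Nppb, Acta1 and Myh7 hold 0, while the unadjusted interval of Nppa lies above 0. In Nppa all KO TAC libraries lay above all Ctrl TAC libraries.

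Closely similar responses were defined as genes called for TAC in both genotypes whose 95% interval of the interaction lay within 1.5-fold either way. There were 2013 of them (11.0% of those tested), 942 risen in both genotypes, 1069 fallen in both, and Socs5 and Dek, which changed in opposite directions by small amounts. The margin is as wide as many of the responses. Among all genes called in both genotypes, the risen had medians of 0.49 in Ctrl and 0.63 in KO, and the fallen -0.38 and -0.49. A small response can therefore pass though it differs between genotypes in proportion or, as in Socs5 and Dek, in sign. Fstl3, a secreted inhibitor of activins, led the risen ones at 2.83, 2.70, 3.31 and 2.88 CPM across Ctrl sham, 3.79, 2.69, 3.75 and 2.86 CPM across KO sham, 8.39, 9.49, 10.1 and 11.4 CPM across Ctrl TAC and 9.01, 9.92, 10.6 and 14.1 CPM across KO TAC. TAC and sham libraries did not overlap and the genotypes did. It rose by 1.75 in Ctrl and 1.73 in KO, with an interval from -0.44 to 0.41. Pi16, a fibroblast gene, rose by 1.42 and 1.58, and the growth factor Hbegf by 1.34 and 1.33. Shisa4, a transmembrane protein gene, rose by 1.20 and 1.34.

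Of the fallen ones, Armh4 stood at 21.5, 17.8, 19.7 and 18.5 CPM across Ctrl sham, 18.0, 15.9, 15.4 and 17.9 CPM across KO sham, 7.44, 7.95, 9.11 and 7.41 CPM across Ctrl TAC and 7.42, 7.41, 7.15 and 7.35 CPM across KO TAC. It fell by 1.28 in Ctrl and fell by 1.20 in KO, with an interval from -0.15 to 0.32. Hnmt, which inactivates histamine, fell by 1.27 in Ctrl and fell by 1.23 in KO. Mhrt, a lncRNA antisense to Myh7, fell by 1.35 in Ctrl and fell by 1.63 in KO, and since it shares exon positions with Myh7 its counts cannot be fully told from those of Myh7. The splicing regulator Rbfox1 fell by 1.06 in Ctrl and fell by 1.23 in KO. The intercalated disc and costamere genes, which join myocytes end to end and to the matrix, held 21 of 54 members in this class, with a median interaction of 0.00090. Lists with lower median responses in KO held larger shares: 27 of 40 TCA cycle, 29 of 48 amino acid catabolism and 29 of 56 fatty acid genes. Membership also went with expression level. Over an average log2 CPM of 6 the class held 577 of 1928 genes, and under 0 it held 1 of 4769. Desmin (Des), the member with the most counts, rose by 0.58 and 0.72, with an interval from -0.049 to 0.32.

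The 5 genes called in both genotypes with opposite signs were Dpm1, Reln, Eif2s3y, Socs5 and Dek. Reln, a secreted glycoprotein, was read at 5.42, 5.64, 6.62 and 6.18 CPM across Ctrl sham, 4.62, 4.86, 4.51 and 5.45 CPM across KO sham, 4.70, 4.99, 4.71 and 4.69 CPM across Ctrl TAC and 6.44, 4.97, 6.37 and 6.39 CPM across KO TAC. It fell by 0.32 in Ctrl (adjusted p = 0.0292) and rose by 0.32 in KO (adjusted p = 0.019), an interaction of 0.64 ± 0.14 (adjusted p = 0.142). The mean was lower in KO sham than in Ctrl sham and higher in KO TAC than in Ctrl TAC, and the genotypes overlapped after either operation. Eif2s3y, a Y-linked subunit of the translation initiation factor eIF2, had 62.6, 49.2, 53.0 and 58.0 CPM across Ctrl sham, 34.7, 40.2, 50.1 and 50.6 CPM across KO sham, 47.7, 36.7, 45.2 and 38.4 CPM across Ctrl TAC and 53.2, 59.3, 51.0 and 54.3 CPM across KO TAC, with no overlap between genotypes after TAC and an overlap after sham (interaction 0.72 ± 0.16, adjusted p = 0.166). For Socs5, a suppressor of cytokine signalling, the interaction was 0.31 ± 0.076 (adjusted p = 0.18), and for the chromatin protein Dek, named here after its values were seen, it was 0.32 ± 0.082 (adjusted p = 0.195).

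Genes near Cardinal or linked to it were read as well. Myocd, the cofactor of the serum response factor, lies beside Cardinal (chr11:65176561-65269989, minus strand), and its responses were 0.18 in Ctrl (adjusted p = 0.254) and 0.13 in KO (adjusted p = 0.371), with an interaction of -0.052 ± 0.15 and a 95% interval from -0.37 to 0.27. Drg1, a GTPase tied to translation, rose by 0.13 in Ctrl (adjusted p = 0.0495) and had a response of 0.11 in KO (adjusted p = 0.0597), with an interval from -0.15 to 0.12. Its partner Zc3h15 had an interaction of 0.055 ± 0.078 and an interval from -0.11 to 0.22. The intervals of these 3 genes lay within 1.5-fold either way.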

How the data were processed

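Polyadenylated RNA of 16 mouse hearts was sequenced as paired reads of 150 bp. Per the submitters' processing notes, cutadapt 2.3, FastQC, HISAT2 2.1.0 and edgeR 3.26.1 were used with GRCm38. The authors deposited raw read counts per gene, and the counting program, annotation and use of strand are not given in the sources used here. Gene names and positions came from GENCODE M21.

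From the counts, edgeR 4.0.16 in R 4.3.3 was run with filterByExpr, TMM scaling and a robust quasi-likelihood fit of 4 group means, which gave the interaction, the TAC response in each genotype and KO against Ctrl after each operation. P-values were adjusted by the Benjamini-Hochberg method over all genes tested. CPM values were computed here from the deposited counts with TMM-scaled library sizes. Errors of fold changes are standard errors. Intervals cover the spread between animals as fitted. Each library is 1 animal.

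The interaction test was tested on simulated data drawn from these libraries. Over 18070 genes it called 41 of 67 genes changed 1.5-fold, 62 of 67 changed 2-fold and 65 of 66 changed 4-fold. Alternatives were DESeq2 1.42.0, limma 3.58.1 with voom, other scalings and filters, animal-number series as a term, and leaving out each library.

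Named genes were a preset list, the genes called for the interaction, the 8 in each direction with the lowest interaction p at an average log2 CPM of at least 2, the 6 in each direction with the largest averaged change among closely similar responders, the genes with opposite responses, and up to 4 members of a list by interaction p or mean CPM. Genes that overlap these were added, and 1 list member is not reported here. The members and lists were chosen with earlier results of these data known.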

Additional observations from a re-analysis of the deposited data

Results flagged for a closer look

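Of 148 groups of 4 values examined, 11 held a library far from the other members by Dixon's criterion, and chance gives about 1 in 20. Gm12295 stood at 8.03 CPM in Ctrl TAC 1 against 2.69 to 3.37 CPM in its group, and at 4.54 CPM in the library labelled KO TAC 4 against 0.276 to 0.371 CPM. Gm20716, which overlaps Dpm1, was at 3.85 CPM in KO sham 2 with the other KO sham libraries at 0, and at 20.1 CPM in Ctrl TAC 4 against 2.85 to 4.18 CPM. Sfrp1 reached 33.5 CPM in KO TAC 3 against 22.0 to 23.4 CPM. Col14a1 was lowest in KO TAC 1, at 30.8 CPM against 37.2 to 38.1 CPM. Serpine2 was highest in Ctrl sham 4, at 23.4 CPM against 20.6 to 20.8 CPM. Reln was at 4.99 CPM in Ctrl TAC 2 against 4.69 to 4.71 CPM, and at 4.97 CPM in KO TAC 2 against 6.37 to 6.44 CPM. On the log2 scale the matricellular and proteoglycan list lay at 0.030 in Ctrl TAC 2 against 0.35 to 0.39, and the cardiomyocyte markers at -0.12 in Ctrl TAC 4 against 0.013 to 0.022.

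The response to TAC differed between genotypes by the interaction test of edgeR for Lrrc14b, at -0.86 on the log2 scale, and for Dpm1, at -1.52. Both had an adjusted p of 0.0168. Neither was called when counts of the overlapping gene were added, where the sum for Lrrc14b is mostly Ccdc127.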

How the results depend on the processing

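The direction of the list medians and of the named interactions was recomputed under other scalings, tests, filters and sets of libraries, and the counts that moved by more than 1.5 times, the medians that moved by more than the spread between libraries, and the single genes that changed direction, are given here. Smaller moves are not all listed, and they include changes of sign in medians near 0. With single libraries left out such medians ran from -0.14 to 0.046 for mitochondrially encoded genes, -0.045 to 0.063 for cytosolic ribosomal protein genes, -0.028 to 0.044 for adrenergic and cAMP genes and -0.051 to 0.032 for ATF4 and mitochondrial stress genes. The count of genes called for the interaction was 132 by DESeq2, 1 with every gene that had at least 1 count, and 0 at an adjusted p under 0.01, with either animal-number series as a term, with overlapping counts summed, an alternative chosen after seeing the data (where the sum for Lrrc14b is mostly Ccdc127, and Dpm1 turned to 0.46) and without KO TAC 4 and Ctrl TAC 2. KO and Ctrl then differed after TAC at 1180 genes by DESeq2, 285 with every such gene, 12 with series 25 as a term and 109 without both libraries, and after sham at 3 genes by DESeq2 and 1 without both libraries. TAC called 2076 genes in Ctrl at an adjusted p under 0.01, and a narrower margin of similarity left 1006 genes with closely similar responses. Animal numbers starting with 25 hold 3 of the Ctrl TAC libraries and KO TAC 4, and those starting with 33 hold Ctrl sham 4 and 3 of the KO sham libraries, so these terms overlap the groups. With series 25 as a term the median interaction was -0.069 for fetal and hypertrophy marker genes, -0.043 for ion channel genes, -0.089 for creatine and nucleotide shuttle genes, -0.068 for IGF, neuregulin and growth factor genes, 0.13 for circadian clock genes and -0.074 for lipid storage and lipase genes, and single interactions were 0.043 for Myocd and -0.063 for Nppb. With series 33 as a term it was 0.14 for fetal and hypertrophy marker genes, 0.31 for matrix cross-linking and remodelling enzymes, 0.16 for microtubule genes, -0.28 for fatty acid uptake and oxidation genes, 0.020 for heat shock and small heat shock genes, 0.060 for angiogenic and endothelial signalling genes and 0.0068 for IGF, neuregulin and growth factor genes, and single interactions were 0.11 for Myocd and 0.026 for Acta1. Without a scaling factor it was -0.093 for sarcomere genes, 0.0099 for calcium handling genes, 0.14 for TGF-beta and BMP signalling genes, 0.17 for actin filament organization genes, -0.075 for TCA cycle and pyruvate entry genes, 0.012 for glucose uptake and glycolysis genes, -0.0017 for metabolic transcription regulators, -0.0053 for creatine and nucleotide shuttle genes, -0.063 for mitochondrial ribosomal protein genes, 0.039 for translation factor and ribosome rescue genes, 0.0079 for ER folding and unfolded protein response genes, 0.040 for ATF4 and mitochondrial stress genes, -0.0015 for atrophy, ubiquitin and autophagy genes, 0.052 for redox genes, 0.071 for angiogenic and endothelial signalling genes, 0.025 for IGF, neuregulin and growth factor genes, 0.088 for calcineurin, NFAT and MEF2 genes, 0.090 for core cardiac transcription factors and 0.056 for intercalated disc and costamere genes, and single interactions were 0.0010 for Myocd and 0.038 for Drg1. Without KO TAC 4 and Ctrl TAC 2 it was -0.094 for creatine and nucleotide shuttle genes, and single interactions were -0.89 for Gm12295 and -0.026 for Nppb. Without the library labelled KO TAC 4 the Cardinal difference after TAC was -3.41 on the log2 scale. Leaving out 1 library at a time gave 0 to 18 interaction calls, 63 to 733 calls after TAC (the fewest without Ctrl TAC 2 and the most without Ctrl TAC 4) and 0 to 2 after sham. In those fits Lrrc14b was called in 8 of 16 and Dpm1 in 7 of 16, with adjusted p of 0.00615 to 0.0713 and 0.000885 to 0.0721 (edgeR). The ranges of the medians were 0.014 to 0.12 for microtubule genes, -0.10 to -0.068 for creatine and nucleotide shuttle genes, -0.089 to 0.11 for fetal and hypertrophy marker genes, 0.026 to 0.18 for chemokine and cytokine genes, -0.019 to 0.061 for angiogenic and endothelial signalling genes, -0.039 to -0.0050 for translation factor and ribosome rescue genes, -0.025 to 0.065 for core cardiac transcription factors, -0.049 to 0.030 for intercalated disc and costamere genes, and those of single interactions -0.14 to 0.020 for Myocd, -0.22 to 0.32 for Nppb, -0.040 to 0.0058 for Drg1, -0.72 to 1.84 for Gm12295. The cause of these changes was not tested. No paired analysis was possible because the animal numbers differ in every library and the replicate numbers were given in accession order.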

Other observations

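In brackets stand the members at an unadjusted p under 0.05 and the number tested. Over all genes tested the shares at that p were 5.76% higher and 5.31% lower. The median interaction of the gene lists not described above was 0.12 for MHC class II and antigen presentation genes (2 higher and 0 lower of 19), 0.10 for chemokine and cytokine genes (5 higher and 0 lower of 59), 0.037 for circadian clock genes (0 higher and 1 lower of 24) and 0.032 for calcineurin, NFAT and MEF2 genes (0 higher and 1 lower of 37). Next in that order it was 0.032 for core cardiac transcription factors (1 higher and 1 lower of 38), 0.019 for adrenergic and cAMP genes (8 higher and 1 lower of 31), 0.012 for angiogenic and endothelial signalling genes (2 higher and 3 lower of 49) and -0.0037 for redox genes (7 higher and 6 lower of 45). Further down it was -0.016 for ATF4 and mitochondrial stress genes (1 higher and 1 lower of 40), -0.017 for translation factor and ribosome rescue genes (1 higher and 4 lower of 64), -0.031 for IGF, neuregulin and growth factor genes (4 higher and 0 lower of 40) and -0.043 for glucose uptake and glycolysis genes (5 higher and 11 lower of 46). It was -0.047 for ER folding and unfolded protein response genes (4 higher and 9 lower of 61), -0.057 for atrophy, ubiquitin and autophagy genes (0 higher and 5 lower of 45), -0.057 for metabolic transcription regulators (1 higher and 9 lower of 40) and -0.059 for creatine and nucleotide shuttle genes (2 higher and 4 lower of 35). Lower still it was -0.14 for lipid storage and lipase genes (1 higher and 9 lower of 37) and -0.14 for heat shock and small heat shock genes (0 higher and 1 lower of 37). With single libraries left out the medians ran from 0.044 to 0.24 for MHC class II and antigen presentation genes, 0.026 to 0.18 for chemokine and cytokine genes, 0.020 to 0.073 for circadian clock genes, 0.011 to 0.050 for calcineurin, NFAT and MEF2 genes, -0.025 to 0.065 for core cardiac transcription factors, -0.028 to 0.044 for adrenergic and cAMP genes, -0.019 to 0.061 for angiogenic and endothelial signalling genes, -0.025 to 0.019 for redox genes, -0.051 to 0.032 for ATF4 and mitochondrial stress genes, -0.039 to -0.0050 for translation factor and ribosome rescue genes, -0.063 to -0.013 for IGF, neuregulin and growth factor genes, -0.062 to -0.014 for glucose uptake and glycolysis genes, -0.081 to -0.015 for ER folding and unfolded protein response genes, -0.093 to -0.038 for metabolic transcription regulators, -0.10 to -0.068 for creatine and nucleotide shuttle genes, -0.27 to -0.075 for heat shock and small heat shock genes.

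Noncoding classes had median interactions of -0.049 over 613 lincRNA genes, -0.054 over 671 antisense genes, 0.037 over 319 genes annotated as processed transcripts and -0.048 over 1053 processed pseudogenes, beside 0.0035 over 14629 protein-coding genes. At an unadjusted p under 0.05, 21 lincRNA genes had an interaction above 0 and 32 below 0, and 13 and 6 processed transcripts did. Together these were 8.65% of the lincRNA genes and 5.96% of the processed transcripts, beside 11.1% of all genes tested. Counts of antisense genes and pseudogenes may hold reads of the genes they overlap or resemble, since the use of strand in counting is not given in the sources used here.

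The median interaction of the cell type markers not described above was -0.046 for endothelial markers (11 tested of 11, with 0 under 0.1 CPM), 0.070 for smooth muscle and pericyte markers (11 tested of 11, with 0 under 0.1 CPM), 0.37 for T and NK cell markers (7 tested of 10, with 3 under 0.1 CPM), 0.75 for B cell markers (7 tested of 7, with 0 under 0.1 CPM), 0.24 for neutrophil and mast cell markers (6 tested of 9, with 3 under 0.1 CPM), 0.47 for erythroid markers (6 tested of 6, with 0 under 0.1 CPM), -2.11 for adipocyte markers (1 tested of 7, with 5 under 0.1 CPM), 2.14 for mesothelial and epicardial markers (4 tested of 7, with 4 under 0.1 CPM), -0.88 for Schwann and neuron markers (6 tested of 7, with 1 under 0.1 CPM), -0.097 for atrial myocyte markers (4 tested of 7, with 3 under 0.1 CPM), -0.56 for skeletal muscle markers (7 tested of 10, with 4 under 0.1 CPM). With single libraries left out these medians ran from -0.091 to 0.0089 for endothelial markers, 0.038 to 0.14 for smooth muscle and pericyte markers, 0.12 to 0.53 for T and NK cell markers, 0.61 to 0.95 for B cell markers, 0.0092 to 0.43 for neutrophil and mast cell markers, 0.30 to 0.57 for erythroid markers, -2.45 to -0.91 for adipocyte markers, 1.06 to 4.08 for mesothelial and epicardial markers, -1.01 to -0.48 for Schwann and neuron markers, -0.14 to -0.021 for atrial myocyte markers, -0.63 to -0.18 for skeletal muscle markers. Those of adipocyte, Schwann and neuron and skeletal muscle markers were nearest 0 without Ctrl TAC 2. The level of the mesothelial and epicardial list was 2.11 in KO TAC 2 against -0.56 to 0.75 in the other KO TAC libraries. Its median interaction was 0.61 when only genes with at least 10 counts in every library were kept. Upk3b of that list, Cd3d of the T and NK cell list and Myh4 of the skeletal muscle list were tested although their medians were under 0.1 CPM.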
